A study of Mus musculus with 4 samples.

Results

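This account covers 8 genes of the epithelial serine protease system in the embryonic mouse ureter, namely the proteases St14, Prss8, Prss22, Tmprss2, Tmprss4 and Klk8 and the Kunitz-type inhibitors Spint1 and Spint2. They were chosen by name: 11 probes on the array carry 1 of these gene names, and all 8 genes were among the 18150 genes tested of 24345 named on the array. The RNA was from E18.5 ureters (embryonic stage in days) of the NMRI strain. The cKO embryos carried Pax2-cre/+ and 2 floxed alleles of the ΔN form of Trp63, the transcription factor of basal epithelial cells, so that recombination was limited to cells with Pax2-cre activity. The control embryos were Trp63(dN-flox/?), with 1 floxed allele and a second allele given as a question mark, and the labels list no cre for them. Each of 4 two-colour arrays carried 1 cKO and 1 control RNA of the same sex, with 3 female pairs and 1 male pair (array 2). The red dye labelled the cKO RNA of arrays 1 and 3, and the green dye that of arrays 2 and 4.

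Serine proteases of the trypsin fold are made as inactive precursors and are switched on by a cut at the start of the catalytic domain. Matriptase, encoded by St14, spans the epithelial cell membrane and activates prostasin, encoded by Prss8, which is held at the surface by a lipid anchor. The Kunitz inhibitors HAI-1 (Spint1) and HAI-2 (Spint2) are membrane proteins of the same cells that block matriptase, prostasin and related enzymes. In mouse epithelia this balance is known for its part in barrier formation, in the cleavage of the epithelial sodium channel and in signalling through the protease-activated receptor PAR2.

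The probes are 60-base oligonucleotides, and the first 30 bases of 4 of them are shown: those on which the calls of the 3 genes that fell rest, and the second, dimmer probe of Spint2, which did not pass. Positions are those of the files (mm9), and all 4 lie on the minus strand. The St14 probe lies at chr9:30897249-30897308, the Prss22 probe at chr17:24131652-24131711, and the Spint2 probes at chr7:30041332-30041381 and chr7:30066532-30066591. The first Spint2 interval spans 50 bases although the probe has 60, so its position in the files is uncertain. Whether they lie in coding exons or untranslated regions is not given here.
St14: ctcagagttcttccaaagtgggaccccctc
Prss22: accctcagacccttcagaagctgaaggtgc
Spint2, brighter probe: aaccgggagtacaacttgtgctgtttaaaa
Spint2, dimmer probe: ttggtagcttcgctgctcctctccggggcc

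Trp63, the targeted gene, had a log2 ratio of cKO over control of -2.18 ± 0.50 (SD, n = 4 arrays; limma adjusted p = 0.00206), and was lower in the cKO on each array. Its probe was not placed relative to the floxed part. Spots well above background made up 72.4% to 82.6% of the cKO channels and 72.6% to 90.0% of the control channels, with the top of both ranges on array 1. The tissue label was set against its markers: uroplakin Upk3a averaged a log2 intensity of 16.86 in cKO and 17.08 in control ureters, and smooth muscle actin Acta2 17.43 in cKO and 17.29 in control ureters. Nothing in the labels says that each RNA came from a separate embryo, and the p-values therefore cover only array-to-array spread, which may be technical.

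St14, Prss22 and Spint2 fell in the cKO ureters, by between 1.53-fold and 1.67-fold. The other 5 genes did not pass the test, and none rose. Of the 8 genes, 3 were called lower at an adjusted p under 0.05 (limma, adjusted over all genes), where 5.63% of all tested genes were called lower and 2.91% higher. The median log2 ratio of the 8 was -0.42, beside 0.00 over all genes tested. A negative ratio on all 4 arrays was found for 5 of the 8, beside 16.3% of all tested genes. In RNA of whole ureters, fewer epithelial cells and less RNA per cell cannot be told apart.

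St14 had the lowest ratio of the 8 genes. Its log2 intensities in cKO RNA were 10.41, 11.59, 11.43 and 11.03 on arrays 1 to 4, against 11.35, 12.02, 11.99 and 12.07 in control RNA. The cKO was lower on each array, while the groups overlapped because both RNAs of array 1 were dim. The log2 ratio was -0.74 ± 0.29 (SD, n = 4; adjusted p = 0.0255), a fall of 1.67-fold. Leaving out array 1 ended the call (adjusted p = 0.101), as did leaving out array 4 (0.0556).

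Prss8, whose product is a substrate of matriptase, did not pass. Its log2 intensities were 11.59, 12.52, 12.51 and 12.16 in cKO RNA, against 11.90, 12.40, 12.24 and 12.30 in control RNA. The cKO was the higher of the pair on arrays 2 and 3 and the lower on arrays 1 and 4. The ratio was -0.01 ± 0.26 (adjusted p = 0.967). A dimmer probe, 556 bases away in mm9, gave a ratio of -0.02 ± 0.31 (adjusted p over probes = 0.940; 4.66% of all probes were called lower).

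Prss22, a tryptase-like protease of epithelia, was the one gene of the 8 whose groups did not overlap. Its log2 intensities were 8.13, 8.40, 8.53 and 8.28 in cKO RNA, against 8.97, 8.98, 8.91 and 9.09 in control RNA. All 4 cKO values were below all 4 control values, as they were for 6.18% of the genes tested. The ratio was -0.65 ± 0.22 (adjusted p = 0.0171), a fall of 1.57-fold, and the adjusted p was 0.0720 without array 4.

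Tmprss2 and Tmprss4 are further transmembrane proteases. Tmprss2, whose product is best known for cutting viral surface proteins, had log2 intensities of 14.49, 15.21, 14.90 and 14.69 in cKO RNA, against 14.94, 14.91, 14.73 and 14.92 in control RNA. The control values lay close together, and the cKO values lay on both sides of them. The Tmprss2 ratio was -0.05 ± 0.34 (adjusted p = 0.864). Tmprss4 had log2 intensities of 9.18, 10.49, 10.22 and 9.92 in cKO RNA, against 10.15, 10.67, 10.55 and 10.38 in control RNA. The cKO was lower on each array and the groups overlapped, with array 1 lowest in both. The Tmprss4 ratio was -0.49 ± 0.34 (adjusted p = 0.0762), and the adjusted p was 0.0315 without array 3.

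Klk8, a secreted kallikrein also called neuropsin and known from brain and epidermis, did not pass. Its log2 intensities were 12.12, 12.19, 12.22 and 12.31 in cKO RNA, against 12.39, 12.55, 12.48 and 12.29 in control RNA. The cKO was lower on arrays 1 to 3 and level with the control on array 4. The ratio was -0.22 ± 0.16 (adjusted p = 0.164). Unlike most of the other genes, Klk8 had its lowest ratio on array 2 and its highest on array 4. Kallikreins are a family of similar genes, and cross-hybridisation among them was not tested.

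The inhibitors differed in their calls. Spint2 had log2 intensities of 14.00, 14.90, 14.71 and 14.43 in cKO RNA, against 14.85, 15.13, 15.27 and 15.23 in control RNA. The cKO was lower on each array, and 1 cKO value, that of array 2, lay above the control value of array 1. The Spint2 ratio was -0.61 ± 0.28 (adjusted p = 0.0339), a fall of 1.53-fold, and the call ended without array 1 (0.137), array 3 (0.0709) or array 4 (0.0721). The dimmer Spint2 probe, 25150 bases away in mm9, gave -0.46 ± 0.25 (adjusted p over probes = 0.0625).

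Spint1 did not pass. Its log2 intensities were 13.44, 14.32, 14.15 and 13.93 in cKO RNA, against 14.14, 14.35, 14.32 and 14.46 in control RNA. The cKO was lower on each array, by very little on array 2, and the groups overlapped. The ratio was -0.36 ± 0.31 (adjusted p = 0.159). The second Spint1 probe, which shares 3 bases with the first in mm9, gave -0.36 ± 0.44 (adjusted p over probes = 0.255).

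**Figure D1:**
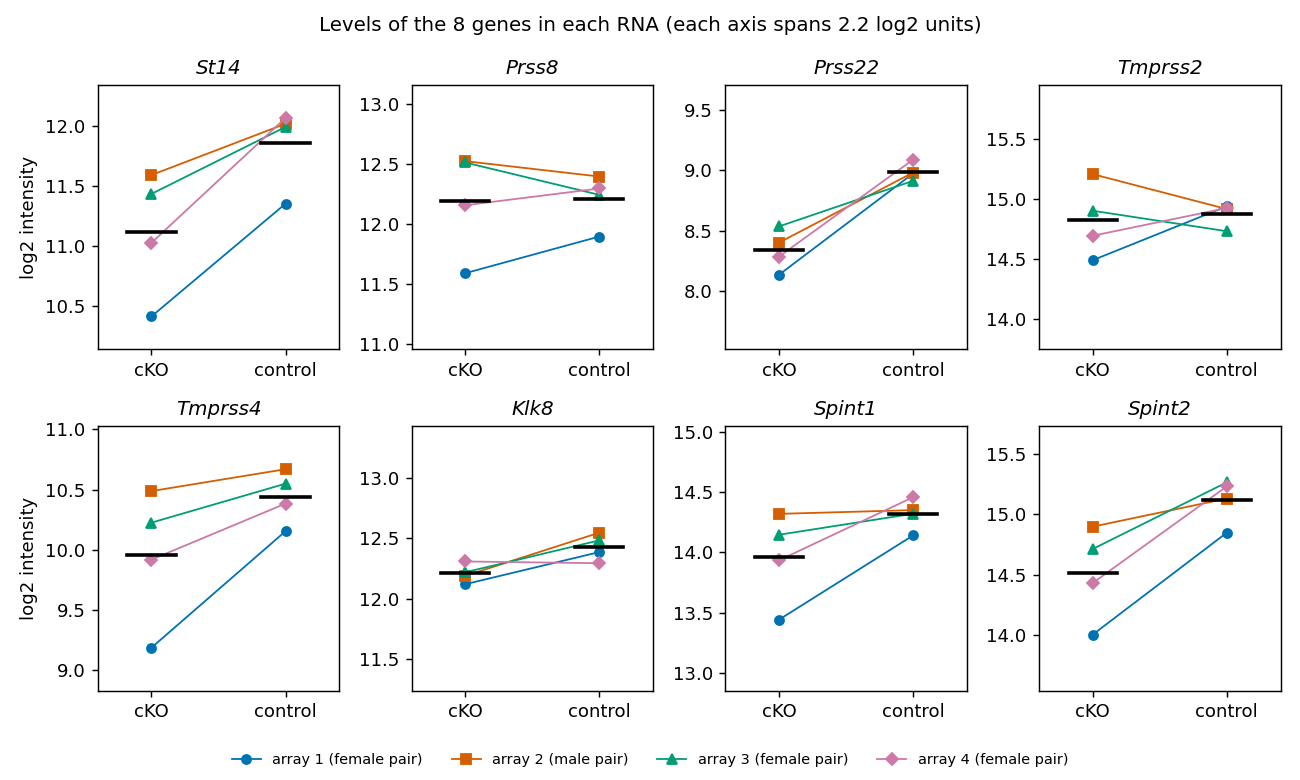
Log2 normalised intensity (vertical axis) of the 8 genes in the cKO and control RNA of each array, with a line joining the 2 RNAs of an array and a black bar at each group mean (n = 4). Every St14, Prss22, Spint2, Tmprss4 and Spint1 line runs lower in the cKO, and array 1 gives the lowest cKO value of each gene.

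Ordered by ratio, the genes ran from St14 through Prss22, Spint2, Tmprss4, Spint1, Klk8 and Tmprss2 to Prss8. Of the 7 pairs of neighbours in that order, none differed on all 4 arrays in the same direction. The difference of St14 minus Prss22 was -0.09 ± 0.17, and that of Tmprss2 minus Prss8 was -0.04 ± 0.14 (SD, n = 4). Beyond the neighbours, 6 further pairs of proteases and inhibitors were compared. The ratio of St14 was below that of its substrate Prss8 on 4 of 4 arrays, by -0.73 ± 0.16, and below that of Spint1 on 4 of 4 arrays, by -0.38 ± 0.11. St14 minus Spint2 was -0.13 ± 0.10 and Spint2 minus Spint1 was -0.25 ± 0.10, each negative on 4 of 4 arrays. Prss8 lay above Spint1 by 0.35 ± 0.13 and above Spint2 by 0.60 ± 0.20. Each of these 6 differences had p = 0.125 in a two-sided exact permutation test of the signs, which is the smallest p that 4 arrays allow (0.271 adjusted over the 13 pairs).

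**Figure D2:**
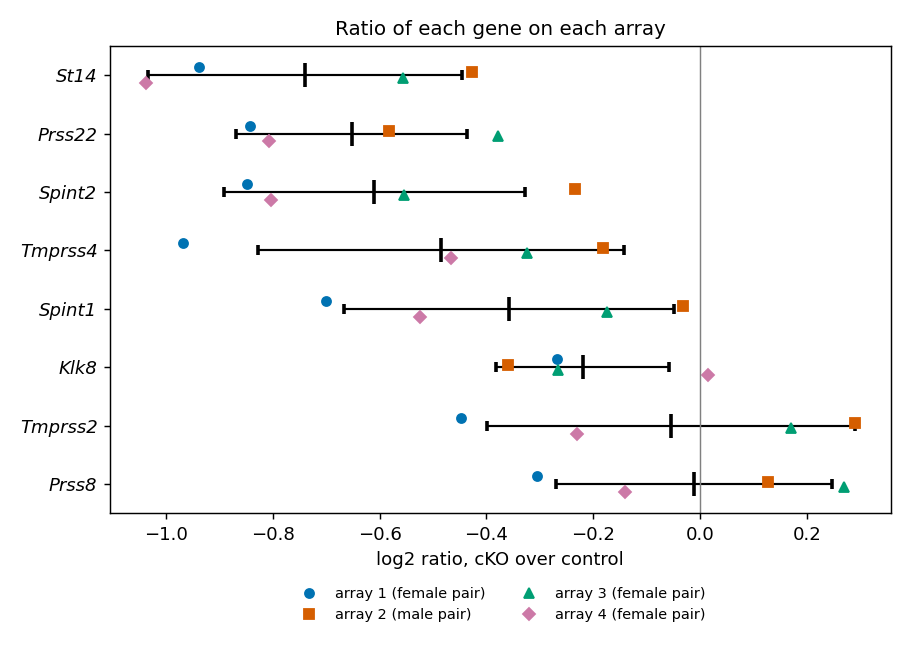
Log2 ratio of cKO over control (horizontal axis) for each gene on each array; the vertical tick and bar are the mean and SD of 4 arrays. St14, Prss22, Spint2, Tmprss4 and Spint1 have all 4 points left of 0, while the points of Tmprss2, Prss8 and Klk8 lie on both sides.

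The ratios of most of the 8 genes varied alike from array to array, and the median of the epithelium markers varied with them. Klk8 did not follow that order, and Prss22 and Prss8 had their highest ratio on array 3. Of the 8 genes, 6 had their lowest ratio on array 1 and 5 had their highest on array 2. The share of all tested genes with these positions was not counted. The median of the 8 was -0.77, -0.21, -0.29 and -0.50 on arrays 1 to 4. The median of 19 epithelium markers was -0.83, -0.06, -0.28 and -0.54 on the same arrays. All 19 markers were tested: 5 fell, 14 did not pass and none rose. Their summed linear intensity ranged from 262440 to 434863 in cKO RNA, against 442946 to 466566 in control RNA. The 3 markers that passed with the lowest p were the simple keratin Krt7 (-1.22 ± 0.35), the transcription factor Grhl2 (-1.23 ± 0.38) and the claudin Cldn4 (-0.81 ± 0.25).

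With each array's ratios taken relative to the median of the epithelium markers, none of the 8 genes passed, and St14 had a value of -0.31 (adjusted p = 0.152), Prss22 of -0.23 (0.296) and Spint2 of -0.18 (0.397). On that scale the median of all tested genes moved to 0.43, and that of the 8 genes was 0.01. Relative to the epithelium markers, Tmprss2 lay higher on each array, by 0.37 ± 0.06, and Prss8 likewise by 0.42 ± 0.17 (SD, n = 4), and neither passed. Tmprss4 minus the epithelium median was -0.06 ± 0.09 and Spint1 minus it was 0.07 ± 0.06. This setting was added after the values had been seen.

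**Figure D3:**
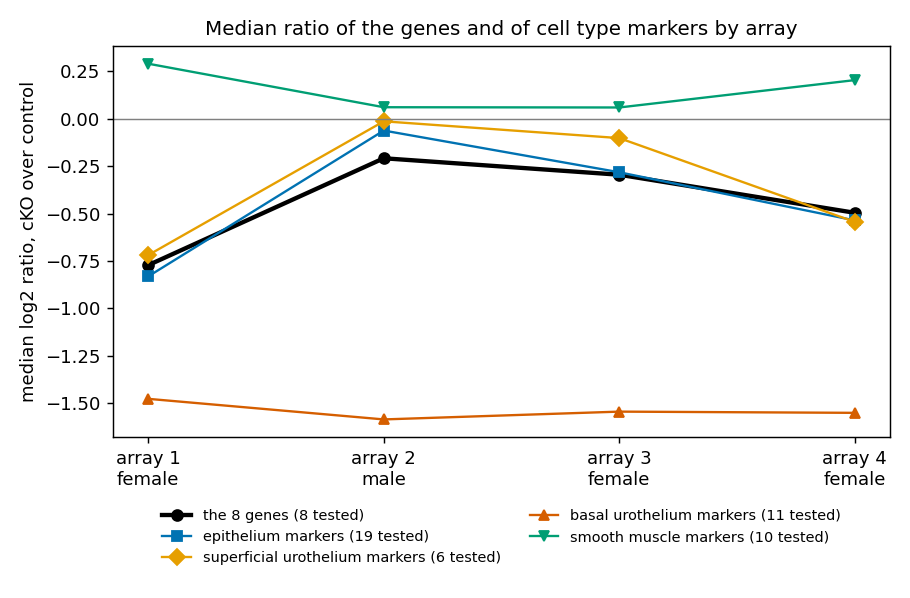
Median log2 ratio of cKO over control (vertical axis) on each array for the 8 genes and for marker lists of epithelium, superficial urothelium, basal urothelium and smooth muscle; lines only join the points of a list. The 8 genes and the epithelium markers are lowest on array 1 and highest on array 2, while the basal markers stay between -1.58 and -1.48.

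The other marker lists gave the following values beside these genes. Of 11 basal urothelium markers 8 fell, with a median of -1.45, and the basal keratins Krt5 (-2.86 ± 0.10) and Krt15 (-2.55 ± 0.13) and the signal Shh (-2.21 ± 0.07) had the lowest p. Their summed intensity was 42026 to 53692 in cKO RNA, against 110303 to 123183 in control RNA. None of 6 superficial urothelium markers passed, and the uroplakin gene Upk1a was close to the threshold (-0.67 ± 0.45, adjusted p = 0.0502). Upk1a passed in 6 other settings, among them without array 3 (0.0383) and with the array as a replicate block (0.00218), and the number of superficial markers called lower was then 2 and 3. The superficial list had a median of -0.34 and summed intensities of 299933 to 471605 in cKO RNA and 479901 to 552987 in control RNA. The array order of the superficial list (-0.72, -0.01, -0.10 and -0.54) was that of the epithelium markers, whereas the basal list varied little (SD of its array medians 0.05). Of 8 squamous markers tested 3 fell and 2 rose, and a gene among those that fell passed the filter through the control RNA alone. Involucrin Ivl was among those that fell, at -2.10 ± 0.44, and Lor among those that rose, at 0.62 ± 0.06. None of 10 smooth muscle markers (median 0.18) and none of 8 mesenchyme markers (median 0.11) passed.

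Markers of liver, kidney, intestine and mast cells moved in both directions. Of 10 hepatocyte markers 5 rose, with a summed intensity of 37038 to 270762 in cKO RNA and 36747 to 68858 in control RNA, and a list median of 2.06, 2.55, 1.32 and 0.47 on arrays 1 to 4. The number of hepatocyte markers called higher was 1 without array 1, 0 without array 3 and 8 without array 4, and it was 0 with the deposited value table and 1 with Agilent's processed signals. The array order of this list differs from that of the 8 genes, and the part of hepatocyte RNA in their ratios was not tested. Of 8 collecting duct markers tested 2 fell and 1 rose, of 6 proximal tubule markers 1 rose (Cubn, 2.27 ± 0.52), and of 7 intestinal markers tested 3 rose and 1 fell. Among the intestinal markers that rose, Phgr1 and Tff3 passed the filter through the cKO RNA alone. In control RNA they were well above background on 1 and 3 of 4 arrays. With probes required to be above background in both genotypes, the number of intestinal markers called higher was 1. Of 6 mast cell markers tested 3 fell, with the mast cell carboxypeptidase Cpa3 at -0.99 ± 0.08. Summed intensities were 25829 to 37065 in cKO and 42174 to 47874 in control RNA for the collecting duct list. Gata3 and Aqp3 were its brightest genes and made up most of that sum, with mean control log2 intensities of 14.65 and 14.06. Aqp2 stood at 8.10 in control RNA, with a ratio of -0.05 ± 0.08. The rule for named genes did not reach Gata3 and Aqp2. For the mast cell list the sums were 3389 to 5010 in cKO and 5761 to 8618 in control RNA. Calb1, Atp6v1b1, Cdx2, Fcer1a and Ms4a2 of these lists were too dim to be tested.

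The other membrane-anchored serine proteases were listed as a group beside the 8 genes. Of 22 on the array, 13 were tested: 3 fell, 10 did not pass and none rose, with a median of -0.04. Tmprss13, a transmembrane protease of stratified epithelia, had log2 intensities of 12.11, 13.19, 13.04 and 12.84 in cKO RNA, against 13.47, 13.81, 13.77 and 13.93 in control RNA. All cKO values were below all control values, and the fall was 1.93-fold (-0.95 ± 0.34, adjusted p = 0.0155; 0.0544 without array 4). Tmprss11g was well above background in the cKO on 1 of 4 arrays, and passed the filter through the control RNA alone. With the main processing its cKO level was at least 1.44-fold lower (limma adjusted p = 0.0120, and 0.0506 without array 3). The Tmprss11g call was lost with the deposited value table (-0.29, adjusted p = 0.149) and relative to the epithelium markers (-0.12, 0.583). It was also lost without a replicate block. Prss27, a protease of squamous epithelia, had a ratio of -0.33 ± 0.10 (adjusted p = 0.0345), and that call ended without any single array (adjusted p between 0.0704 and 0.144).

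Of 12 tissue kallikreins other than Klk8, 5 were tested and none passed. Named by their mean signal were Klk10 (0.07 ± 0.06, adjusted p = 0.487) and Klk11 (-0.07 ± 0.65, adjusted p = 0.815). Klk11 had ratios of 0.73, -0.82, 0.08 and -0.29 on arrays 1 to 4, the widest spread among the kallikreins tested. Of 12 other secreted proteases of the trypsin fold, 1 rose and none fell. That gene was Prss23, with log2 intensities of 13.75, 13.79, 13.76 and 14.02 in cKO RNA, against 13.20, 13.27, 13.40 and 13.35 in control RNA. All cKO values were above all control values (0.52 ± 0.13, adjusted p = 0.00932), as they were for 3.65% of the genes tested.

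Other genes with a Kunitz domain, not all of them inhibitors, and Kazal-type inhibitors were listed as well. Of 12 tested genes with a Kunitz domain 3 fell, beside 5.63% of all tested genes. Of the rest 9 did not pass and none rose, and the list had a median of -0.16. The genes that fell include matrix proteins: the anchoring fibril collagen Col7a1 fell 1.71-fold (-0.78 ± 0.07, adjusted p = 0.00208) and the papilin gene Papln 2.56-fold (-1.35 ± 0.52, adjusted p = 0.0195). The Papln call ended without array 2 (0.0649) or array 4 (0.0544). Spint3 passed the filter through the control RNA alone, being well above background there on 4 arrays and in cKO RNA on none. With the main processing Spint3 was at least 1.18-fold lower in the cKO (limma adjusted p = 0.00843). That call was lost with the deposited value table (-0.02, adjusted p = 0.840), relative to the epithelium markers (-0.03, 0.893) and without a replicate block (0.142). Of 12 Kazal-type inhibitors 4 were tested and none passed. Named by their mean signal were Spink8 (0.34 ± 0.25, adjusted p = 0.135) and Spink2 (0.11 ± 0.17, adjusted p = 0.478).

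Substrates and receptors of these proteases changed in opposite directions. Of 13 tested 4 fell, 3 rose and 6 did not pass, with a median of -0.16. F2rl1, which encodes PAR2, had log2 intensities of 7.08, 7.93, 7.97 and 7.64 in cKO RNA, against 8.13, 8.72, 8.82 and 8.55 in control RNA. All its cKO values were below all control values, with a fall of 1.86-fold (-0.90 ± 0.11, adjusted p = 0.00200). Cdcp1, a surface glycoprotein cut by serine proteases, fell 1.91-fold (-0.94 ± 0.19, adjusted p = 0.00313). Epcam, an epithelial adhesion protein that matriptase cleaves and that is also on the epithelium list, fell 1.66-fold (-0.73 ± 0.31, adjusted p = 0.0215; 0.0508 without array 2 and 0.0886 without array 4). Relative to the epithelium markers, F2rl1 (adjusted p = 0.0595), Epcam (0.165) and the Kunitz-domain gene Col7a1 (0.113) did not pass.

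The epithelial sodium channel stood on the other side. Its subunit genes Scnn1a and Scnn1b rose in the cKO ureters, while Prss8, encoding a protease known to act on this channel, did not pass. Scnn1b had log2 intensities of 11.83, 12.77, 12.68 and 12.34 in cKO RNA, against 10.75, 11.33, 11.04 and 11.07 in control RNA, a rise of 2.56-fold (1.36 ± 0.24, adjusted p = 0.00254). Scnn1a had 9.21, 10.42, 10.22 and 9.90 in cKO RNA, against 8.38, 8.99, 8.81 and 8.87 in control RNA, a rise of 2.26-fold (1.17 ± 0.29, adjusted p = 0.00599). For both genes the lowest cKO value was above the highest control value. The third subunit gene Scnn1g had a ratio of 0.36 ± 0.36 (adjusted p = 0.202), and it is named although the rule for named genes did not reach it.

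**Figure D4:**
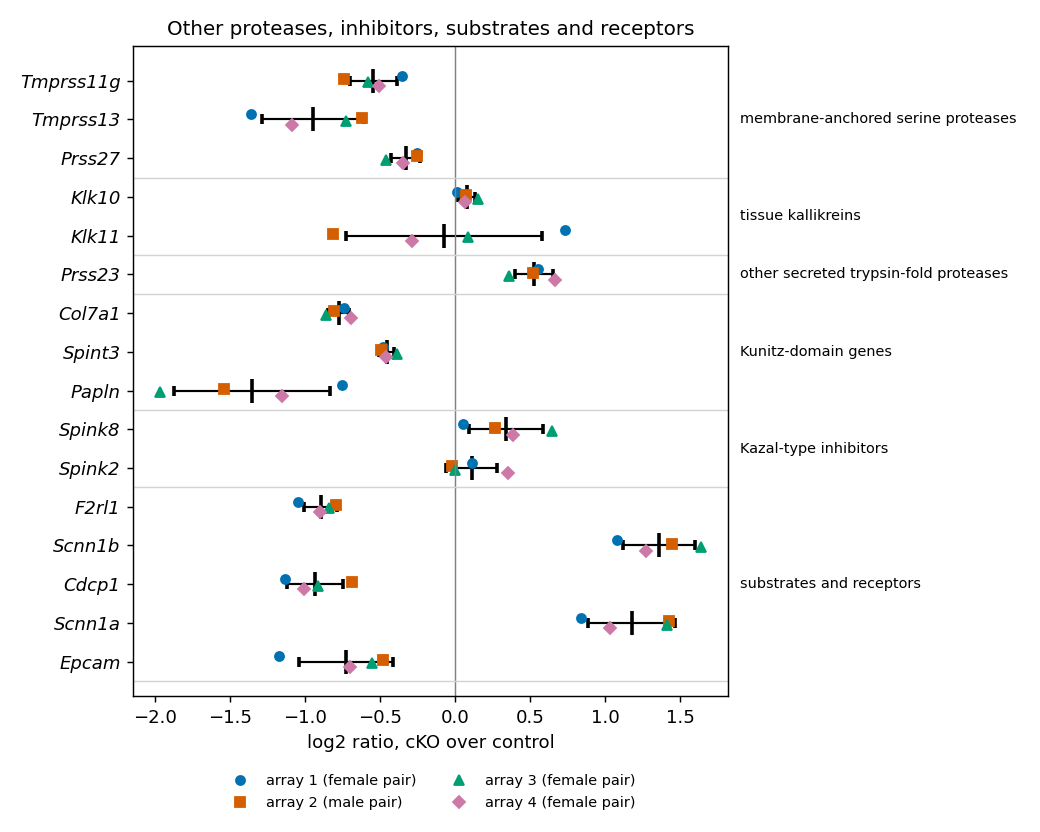
Log2 ratio of cKO over control (horizontal axis) on each array for the named genes of the protease, inhibitor, substrate and receptor lists; the vertical tick and bar are the mean and SD of 4 arrays. Scnn1a, Scnn1b and Prss23 lie right of 0 on all arrays, and F2rl1, Cdcp1, Epcam, Tmprss13, Col7a1 and Papln left of it.

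For the 3 genes that fell, the tested genes with the most similar ratios were found by the mean absolute difference over the 4 arrays. Nearest to St14 were Kdf1, a keratinocyte differentiation factor, at a difference of 0.023, the glutathione transferase Gstm1 at 0.057 and the alcohol dehydrogenase Adh1 at 0.0805. Kdf1 had ratios of -0.91, -0.44, -0.52 and -1.02 on arrays 1 to 4, beside -0.94, -0.43, -0.56 and -1.04 for St14. Nearest to Prss22 were 5830428M24Rik at 0.045, the phosphatase Dusp14 at 0.056 and the kinase Cdkl2 at 0.0613. Nearest to Spint2 were the RNA sensor Ifih1 at 0.0561, Oas1f at 0.0665 and the myelin protein gene Mbp at 0.0697. These genes were found by a search over all genes, and their likeness is a description.

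Promoter windows of 300 bases around the gene start (RefSeq, GRCm38.p6) matched 4 of the 8 genes: Spint1, Spint2, Klk8 and Tmprss2. The inhibitor pair is shown because its members had negative ratios on all 4 arrays and differed in the call. Capitals mark the GC box GGGCGG on either strand; in each window 3 matches were found, none overlapping, and 35.7% of all 32851 windows hold at least 1. Spint1 lies at chr2:119237110-119237409 on the plus strand, and Spint2 at chr7:29281928-29282227 on the minus strand.
Spint1: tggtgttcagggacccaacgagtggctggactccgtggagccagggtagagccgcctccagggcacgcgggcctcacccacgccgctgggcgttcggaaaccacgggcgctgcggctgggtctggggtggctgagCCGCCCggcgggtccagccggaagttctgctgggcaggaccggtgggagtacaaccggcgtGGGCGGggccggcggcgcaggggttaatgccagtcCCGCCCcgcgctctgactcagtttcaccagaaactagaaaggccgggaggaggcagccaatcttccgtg
Spint2: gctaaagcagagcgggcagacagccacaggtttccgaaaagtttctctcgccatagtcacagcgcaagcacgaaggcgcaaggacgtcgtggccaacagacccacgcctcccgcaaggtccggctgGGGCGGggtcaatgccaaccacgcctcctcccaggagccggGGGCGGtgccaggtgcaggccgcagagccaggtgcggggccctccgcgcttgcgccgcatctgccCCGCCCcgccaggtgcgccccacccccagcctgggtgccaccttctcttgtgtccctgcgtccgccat

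The GC content was 69.7% for Spint1 and 69.3% for Spint2, beside a median of 52.7% over all windows. The single p53 family element, searched on both strands, was found in none of the 4 windows and in 8.36% of all windows; no match says only that these letters are not in this window. Klk8 had 1 GC box and Tmprss2 had none.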

How the data were processed

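Per the file headers, the deposited scanner files hold intensities of each spot (mean signal, local background, processed signals) and a log10 ratio of red over green, written by Agilent Feature Extraction 10.7.3.1. Per the labels, 200 ng of total RNA was amplified. The deposited value table holds log2 ratios, with a median of 0 per array; a slope of 0.952 to 0.991 on the scanner ratios, turned to cKO over control, gave the log base and sign. How dim probes were set there is unknown.

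Mean signals were corrected with normexp (offset 50) and normalized by loess within each array, with control spots at weight 0. After removal of outlier spots (3.04% to 3.58%), the up to 4 spots of each probe were averaged, and 0 spots were saturated. A probe passed if most of its spots were well above background on all 4 arrays in at least 1 genotype, and the brightest passing probe stood for a gene. Names were updated through RefSeq (GRCm38.p6, names only): of 39429 probes, 28328 were named through their accession, 3400 kept a current symbol and 243 had an outdated one replaced. Levels are log2 intensities after a further Aquantile step. Ratios were fitted with limma 3.58.1 in R 4.3.3 with the dye as a term, adjusted by Benjamini-Hochberg over 18150 genes, with a threshold of 0.05; probes were adjusted over 28396 probes. The fit was tested on simulated data. The number of arrays limits the precision. All arrays lay on 1 slide with 1 scan time. Folds against a dim group are lower limits within the main processing only, and other processing can give smaller folds. They are taken against the higher of the gene's own level and the lowest level well above background on each array.

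The genes, lists, tests and alternatives were chosen with earlier results of these data known. Named are the 8 genes with each probe, Trp63, up to 5 genes past the threshold per protease, inhibitor or substrate list (3 per marker list) by lowest p, or the 2 brightest where none passed, and the 3 genes most like each member that passed. The values of 1 marker gene that this rule reaches are not reported here.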

Additional observations from a re-analysis of the deposited data

Results flagged for a closer look

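Examined were 95 genes: the 8 genes, the named genes, and all tested genes of the protease, inhibitor and substrate lists. Of these, 3 had 1 array far from the other 3. That share does not exceed the about 1 in 20 that chance gives. None of the 8 genes was among the 3. Spink1, a Kazal-type trypsin inhibitor, had a ratio of 2.13 on array 2, the male pair, and of -0.21, -0.40 and -0.22 on arrays 1, 3 and 4. Tfpi2, a Kunitz inhibitor of the extracellular matrix, had a ratio of -0.63 on array 1 and between -0.06 and 0.01 on the other arrays. Htra1, a secreted serine protease, had a ratio of 0.14 on array 3 and between 0.27 and 0.29 on the other arrays. None of the 3 passed the test over all genes (limma adjusted p = 0.676, 0.441 and 0.0569).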

How the results depend on the processing

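St14, Prss22 and Spint2 had negative ratios in all 17 settings. Several of these settings leave the ratio itself unchanged and so cannot test its sign. Among them are the fit with no dye term and the fits of the separate channels. Spint2 had -0.60 with Agilent's processed signals (adjusted p = 0.0613). With the deposited value table none of the 8 genes was called: St14 had -0.74, Prss22 -0.78 and Spint2 -0.59 (limma adjusted p = 0.0759, 0.0574 and 0.108), and 594 genes were lower and 259 higher in all. In a fit of the separate channels with the array as a replicate block, 1895 genes were lower and 1470 higher, and Tmprss4 passed at -0.49; without the block 192 and 37 were called, and 0 of the 8 (St14 -0.74, Prss22 -0.65, Spint2 -0.61). Relative to the epithelium markers, an added setting, 0 of the 8 were lower (St14 -0.31, Prss22 -0.23, Spint2 -0.18), 228 genes were lower and 4497 higher, and Prss27 at 0.10 and Fabp2 at 0.090 turned sign. With 1 array left out, where the lone array of a dye orientation is assumed to vary like the others, the ratios ranged from -0.89 to -0.59 for St14, from -0.77 to -0.54 for Prss22, from -0.75 to -0.47 for Spint2 and from -0.65 to -0.32 for Tmprss4. The number of the 8 called lower was 3 without array 2 or 3, 1 without array 1 and 0 without array 4. Without array 3 the 3 were St14, Prss22 and Tmprss4, and Spint2 was not called. All genes called lower numbered 553 to 766, and higher 276 to 359. The array pairs the RNAs in each ratio. Only 1 array carried a male pair, and nothing is said here of an effect of sex.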
